A study of Saccharomyces cerevisiae with 4 samples.

Results

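The 10 genes described here encode the proteins that set the length of yeast telomeres and cap their ends: RIF1, RIF2, EST1, EST2, EST3, CDC13, STN1, TEN1, TBF1 and PIF1. They were taken as a list of names by their known function, with no measured value as a criterion though with earlier results of these data known, and matched by gene identifier to the probe sets of the array. All 10 were found among the 5449 measured genes of Saccharomyces cerevisiae, each with a single probe set, and none of these probe sets is of the type that matches several sequences.

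Total RNA was measured on Affymetrix arrays in 4 budding yeast strains: strains deleted for SIR2, SIR3 or SIR4, and the wild type BY4742. BY4742 is a haploid laboratory strain of mating type alpha that lacks functional HIS3, LEU2, LYS2 and URA3; the labels give BY4742 for the wild type sample, and the parent of the deletion strains is not stated there. Per the labels, the deletions were made with a KanMX cassette, so the presence of that cassette and the loss of the SIR gene cannot be told apart, and all strains grew in the rich medium YPD at 30 °C to exponential phase. Each strain had 1 array, so the values have no replicate error and no test was possible. The 3 deletions were all set against the same wild type array, and a wild type value that lay high or low by chance would move all 3 differences together.

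Telomeres of this yeast end in irregular repeats of thymine and guanine. The protein Rap1 binds the double-stranded part and its C-terminal domain holds either the silencing proteins Sir3 and Sir4 or the length regulators Rif1 and Rif2. Telomerase, made of the reverse transcriptase Est2, the RNA TLC1 and the accessory proteins Est1 and Est3, adds repeats to the single-stranded overhang. The complex of Cdc13, Stn1 and Ten1 covers that overhang, recruits telomerase and later directs synthesis of the second strand. The design of the series concerns genes repressed by the Sir complex, and the values below give the RNA levels of the factors that share the chromosome end with it in strains that lack 1 of its subunits.

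Each deleted gene was low in its own strain. SIR2 lay at a log2 level of 3.68 in the SIR2 deletion, against 9.96 in wild type. SIR3 lay at 4.51 in the SIR3 deletion, against 9.32 in wild type. SIR4 lay at 3.05 in the SIR4 deletion, against 9.98 in wild type. The background level of an array, taken as the 95th percentile of 1746 probe sets for a different yeast, was between 4.28 and 4.39, and all 10 telomere genes lay above it on all 4 arrays. Those 1746 were the probe sets whose single gene identifier had no match among the genes of Saccharomyces cerevisiae, and no species label was used to pick them. Of 7 control mRNAs measured at both ends, the signal at the 3 prime end minus that at the 5 prime end differed from wild type by -0.35 to -0.09 with SIR2 deleted, -0.11 to 0.31 with SIR3 deleted and -0.19 to 0.07 with SIR4 deleted.

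None of the 10 genes differed at least 2-fold, a log2 difference of 1, from wild type in any deletion. Over all genes, 2.86% did so with SIR2 deleted, 2.4% with SIR3 deleted and 1.45% with SIR4 deleted, so a count of 0 among 10 is near that background. At a limit of 1.5-fold, RIF2 alone was called, lower in the SIR2 and SIR4 deletions, and no gene of the list was called in the SIR3 deletion. At that limit 10.5%, 6.5% and 3.51% of all genes were called in strains lacking SIR2, SIR3 and SIR4. The median log2 differences of the 10 genes were -0.01, -0.12 and 0.00 in strains lacking SIR2, SIR3 and SIR4, and over all genes 0.00, -0.01 and 0.03. Repeating the quantile normalization over the probe sets of Saccharomyces cerevisiae alone brought the median in the SIR3 deletion to -0.03. The median sizes of the differences, without sign, were 0.23, 0.21 and 0.13 for the 10 genes and 0.20, 0.14 and 0.10 for all genes, in the same order of strains.

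**Figure D1:**
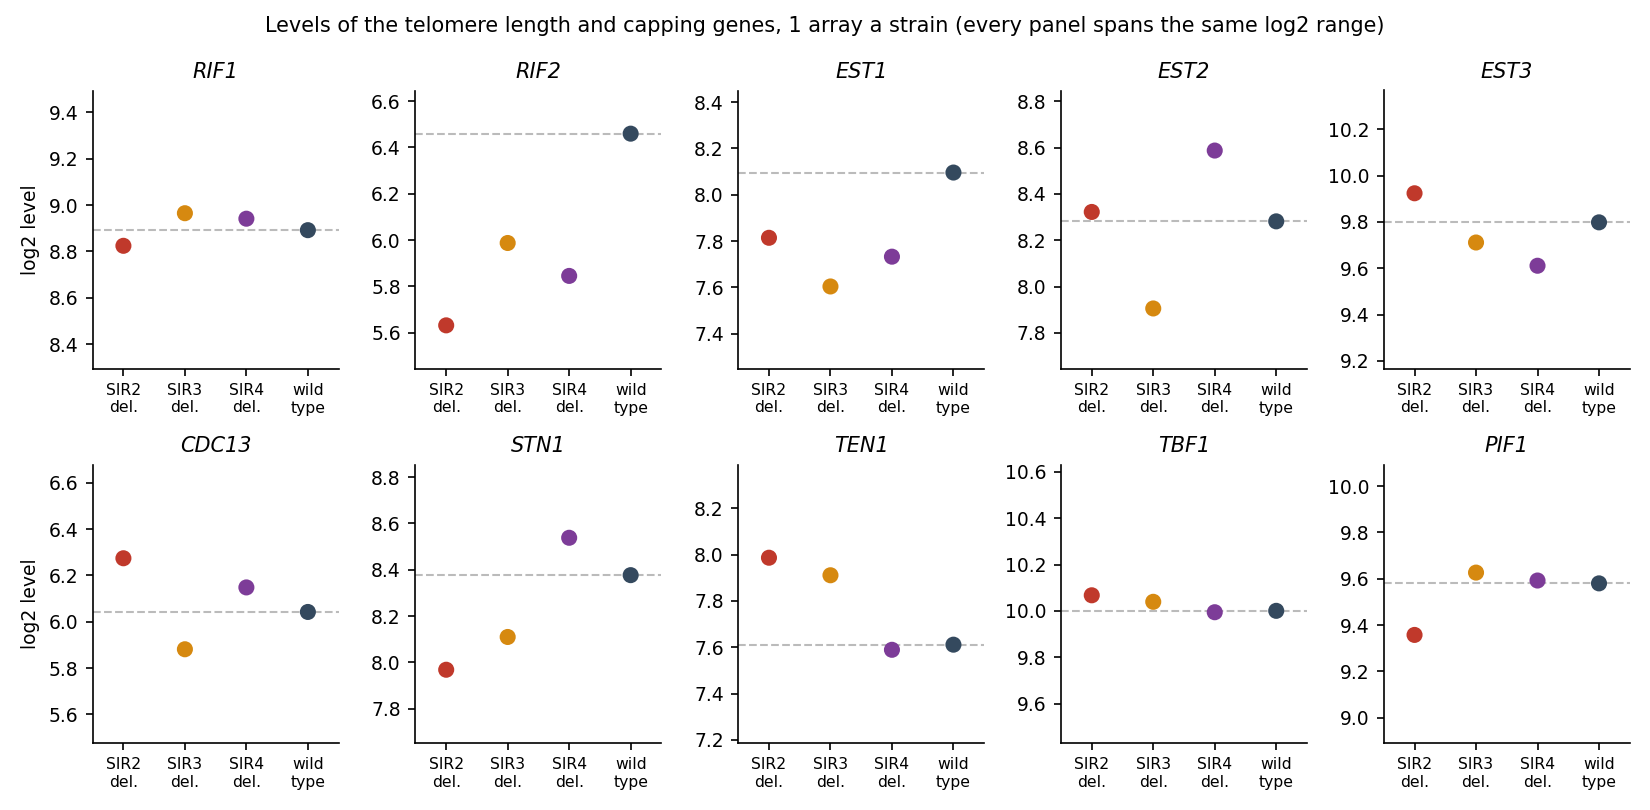
Log2 level of each of the 10 genes (vertical axis) on the arrays of the SIR2, SIR3 and SIR4 deletions and of wild type, with 1 point an array and a dashed line at the wild type level. RIF2 and EST1 lie below the wild type line in all 3 deletions, while TBF1 stays within 0.07 among the deletions.

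The Rif proteins limit telomere elongation. RIF2 encodes a protein found at telomeres, where it binds Rap1 and restrains telomerase and the checkpoint kinase Tel1. RIF2 lay at 5.63, 5.99 and 5.85 in strains lacking SIR2, SIR3 and SIR4, against 6.46 in wild type. All 3 deletion arrays were below wild type, with log2 differences of -0.83, -0.47 and -0.61, or 0.56, 0.72 and 0.65 of the wild type level on a linear scale. The mean difference was -0.64, which is 1.56-fold lower. With the repeated normalization the difference in the SIR3 deletion was -0.33.

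RIF2 stood toward the low edge of all measured genes. Its difference was matched or exceeded downward by 122 genes with SIR2 deleted, 282 with SIR3 deleted and 107 with SIR4 deleted, of 5449 and counting RIF2 itself. In all 3 deletions at once, 96 genes, or 1.76%, lay at least as low as the smallest of its 3 differences. Its level was 1.31 to 2.17 above the background of the arrays, and RIF2 and CDC13 were the 2 of the 10 genes nearest to background. Among the 1746 probe sets of the different yeast, 95% of the differences lay between -0.46 and 0.47 with SIR2 deleted, -0.42 and 0.51 with SIR3 deleted and -0.48 and 0.44 with SIR4 deleted, so the value of RIF2 in the SIR3 deletion was close to the spread of such probe sets.

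RIF1 encodes the larger Rif protein, which recruits the phosphatase Glc7 and also controls the timing of replication origins. It lay at 8.82, 8.96 and 8.94 in strains lacking SIR2, SIR3 and SIR4, against 8.89 in wild type. Wild type fell within the range of the deletions, and the differences were -0.07, 0.07 and 0.05. The pair of Rif genes therefore had unlike values, RIF2 lower in every deletion and RIF1 within 0.07 of wild type.

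The telomerase genes did not move as a group. EST1 encodes the subunit that bridges telomerase to Cdc13 at the overhang. It lay at 7.81, 7.60 and 7.73 in strains lacking SIR2, SIR3 and SIR4, against 8.10 in wild type, and all 3 deletion arrays were below wild type. The log2 differences were -0.28, -0.49 and -0.36, or 0.82, 0.71 and 0.78 of the wild type level. EST1 was matched or exceeded downward by 1010 genes with SIR2 deleted, 263 with SIR3 deleted and 249 with SIR4 deleted, counting itself. In size without sign, 36.2% of all genes differed as much with SIR2 deleted. In all 3 deletions at once, 171 genes, or 3.14%, lay at least as low as the smallest of its differences.

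EST2, the catalytic reverse transcriptase, varied more among the deletions than any other gene of the list. It lay at 8.32, 7.91 and 8.59 in strains lacking SIR2, SIR3 and SIR4, against 8.28 in wild type. The SIR3 deletion was low and the SIR4 deletion high, with differences of -0.38 and 0.31, while the SIR2 deletion differed by 0.04. The range among the deletions was 0.68, and 8.22% of all genes had a range as wide.

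EST3 encodes a small subunit whose reading frame is joined by a programmed ribosomal frameshift. It lay at 9.92, 9.71 and 9.61 in strains lacking SIR2, SIR3 and SIR4, against 9.80 in wild type. Wild type was inside the range of the deletions, and the differences were 0.13, -0.09 and -0.19. The RNA subunit TLC1 had no probe set under its name and was not analysed here.

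The 3 genes of the capping complex did not share a direction in any deletion. CDC13 encodes the subunit that binds the single-stranded overhang. It lay at 6.27, 5.88 and 6.15 in strains lacking SIR2, SIR3 and SIR4, against 6.04 in wild type, which was inside their range. The differences were 0.23, -0.16 and 0.11, and under the repeated normalization the value in the SIR3 deletion was 0.02, so its direction there depended on the scaling.

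STN1 and TEN1 encode the partners of Cdc13, which resemble subunits of replication protein A. STN1 lay at 7.97, 8.11 and 8.54 in strains lacking SIR2, SIR3 and SIR4, against 8.38 in wild type. It was low in the SIR2 and SIR3 deletions, by -0.41 and -0.27, and above wild type by 0.16 in the SIR4 deletion. TEN1 lay at 7.99, 7.91 and 7.59 in strains lacking SIR2, SIR3 and SIR4, against 7.61 in wild type. It was high where STN1 was low, with differences of 0.38 and 0.30 in the SIR2 and SIR3 deletions, and differed by -0.02 in the SIR4 deletion. None of these values reached 1.5-fold. With SIR2 deleted, 20.9% of all genes differed as much as STN1 in size without sign and 24.5% as much as TEN1. With SIR3 deleted these shares were 25% and 21.3%.

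TBF1 and PIF1 act at the same ends by other means. Tbf1 binds repeats of the vertebrate telomere type within subtelomeric DNA and also activates transcription elsewhere in the genome. TBF1 lay at 10.07, 10.04 and 9.99 in strains lacking SIR2, SIR3 and SIR4, against 10.0002 in wild type. Its differences of 0.07, 0.04 and -0.01 gave the narrowest range among the deletions of the 10 genes, 0.07, and 91.7% of all genes had a range as wide.

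Pif1 is a helicase that removes telomerase from chromosome ends and also works in mitochondria. PIF1 lay at 9.36, 9.63 and 9.59 in strains lacking SIR2, SIR3 and SIR4, against 9.58 in wild type. The SIR2 deletion was low, by -0.22, and the other deletions differed by 0.05 and 0.01.

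**Figure D2:**
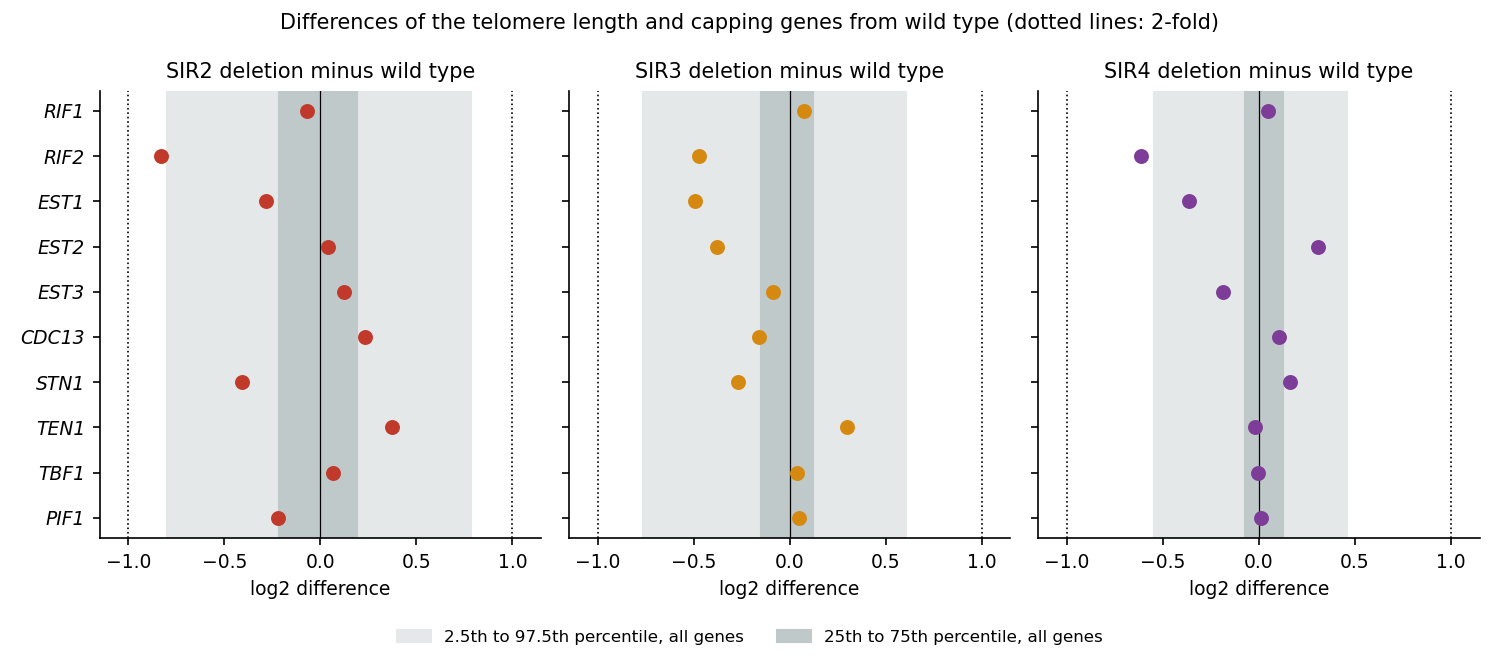
Log2 difference from wild type (horizontal axis) of the 10 genes in each deletion, over bands that hold the central 50% and the central 95% of all 5449 genes. RIF2 lies outside the wide band in the SIR2 deletion, where the band starts at -0.80, and in the SIR4 deletion, where it starts at -0.55, and the other 9 genes lie inside it in every deletion.

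Wild type lay outside the range of the 3 deletions for 2 of the 10 genes, RIF2 and EST1, above the deletions in both. Over all genes this held for 45.7%, and a count of 2 among 10 is too small to set against that share. In the other 8 genes wild type lay among the deletions. Their range among the deletions is then, by arithmetic, at least as wide as any of their differences from wild type. The median range among the deletions was 0.33 for the 10 genes and 0.27 for all genes.

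The deletions were also set against each other. These comparisons do not use the wild type array. Between the SIR4 and SIR3 deletions EST2 was higher by 0.68 in the SIR4 deletion, the single value of the list past 1.5-fold, where 5.27% of all genes were called. Between the SIR2 and SIR4 deletions no gene of the list was called, against 8.41% of all genes, and the values were largest for STN1, at -0.57, and TEN1, at 0.40. Between the SIR2 and SIR3 deletions none was called either, against 4.75% of all genes, with EST2 at 0.42, CDC13 at 0.39 and RIF2 at -0.36. Both of the last genes had the SIR2 and SIR3 deletions as the ends of their range among the deletions, and under the repeated normalization that range was 0.14 for CDC13 and 0.53 for RIF2.

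In the annotation of the S288C reference, assembly R64, the 10 genes lie on 6 chromosomes and 1 of them, RIF2, is among the outermost 20 protein-coding genes of a chromosome arm. RIF2 is at place 12 from the right end of chromosome XII, CDC13 at place 27 from the left end of chromosome IV and RIF1 at place 28 from the right end of chromosome II. The remaining genes lie at place 54 or farther in. No gene of the list overlaps another annotated feature.

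The nearest protein-coding genes on either side of the 10 were all measured, 20 in number. At 2-fold 2 of them were called with SIR2 deleted and 1 each with SIR3 and SIR4 deleted, where 2.86%, 2.4% and 1.45% of all genes were called, so the counts are too small to set against the background. The gene called in every deletion was SST2, which lies beside RIF2 and encodes a protein that turns off the pheromone G protein. SST2 lay at 7.58, 7.39 and 8.32 in strains lacking SIR2, SIR3 and SIR4, against 10.85 in wild type. Its differences were -3.28, -3.47 and -2.53, lower in every deletion. FMP27, on the other side of RIF2, differed by 0.32, 0.20 and -0.08. FPR4, farther from RIF2 on the side of SST2, differed by -0.84, -0.25 and -0.36, and RPL6B beside it by 0.06, 0.03 and 0.05. FPR4 and RPL6B were named after their values were seen. Whether the low values of SST2 and RIF2 are related was not tested.

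**Figure D3:**
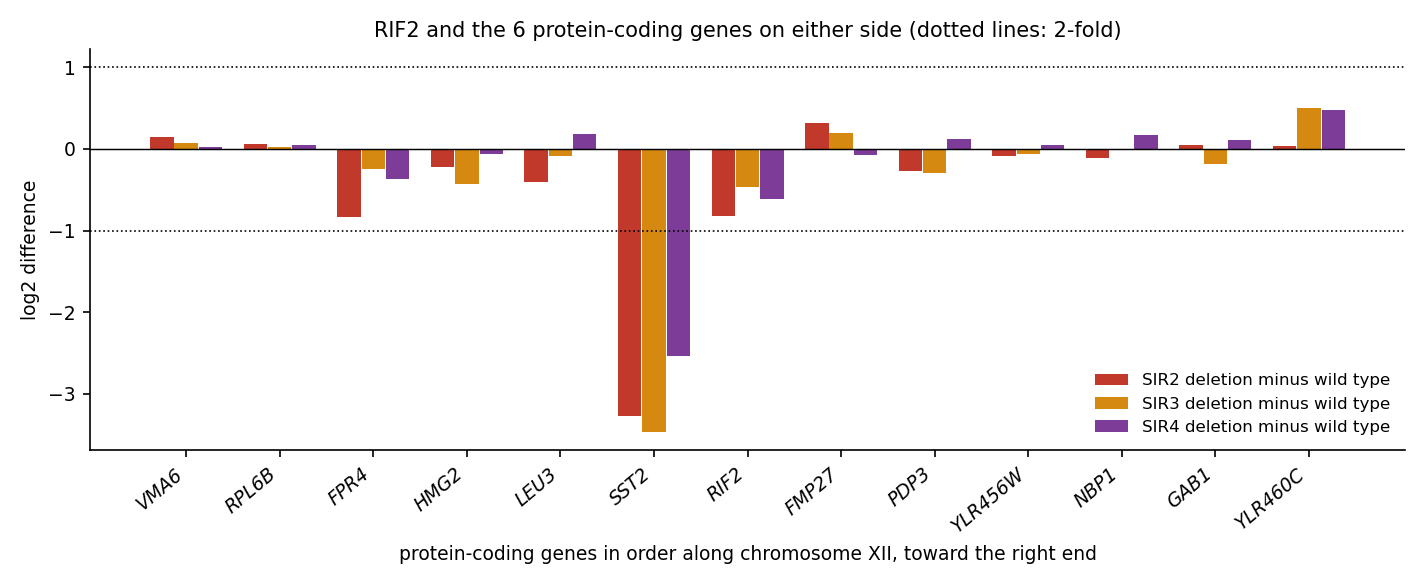
Log2 difference from wild type (vertical axis) of RIF2 and of the 6 protein-coding genes on either side in gene order, with 1 bar for each deletion. SST2 passes the dotted 2-fold lines in every deletion, RIF2 lies at -0.83, -0.47 and -0.61, and FMP27 on the other side lies between -0.08 and 0.32. FPR4, farther out on the side of SST2, lies at -0.84, -0.25 and -0.36.

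The second called neighbour was BNA5, beside EST1, an enzyme of NAD synthesis, which was higher by 1.11 in the SIR2 deletion and differed by 0.33 and 0.60 in the SIR3 and SIR4 deletions. TOP3, on the other side of EST1, differed by 0.08, -0.34 and -0.42. RLP24, a ribosome assembly gene beside TEN1, differed by -0.75, -0.27 and 0.05, and MFT1 beside PIF1 by -0.61, -0.19 and -0.29. The other neighbours were CHK1 and PPS1 beside RIF1, TAD3 and BUD6 beside EST2, DOT5 and FAA3 beside EST3, FMP45 and DTD1 beside CDC13, PDC2 and RRP8 beside STN1, LOT6 beside TEN1, TAF14 and HHO1 beside TBF1, and OGG1 beside PIF1, and none of them was called at 2-fold.

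By the Euclidean distance between the 3 log2 differences, the genes most like RIF2 over the 3 deletions were YBL008W-A, PLB2, ENT1, DIG1 and CTF13, at distances of 0.09, 0.15, 0.17, 0.17 and 0.19. PLB2, a phospholipase gene, differed by -0.79, -0.62 and -0.62 in strains lacking SIR2, SIR3 and SIR4. DIG1, which encodes an inhibitor of the mating transcription factor Ste12, differed by -0.83, -0.43 and -0.78. The epsin gene ENT1 differed by -0.75, -0.34 and -0.55. CTF13, a kinetochore gene, was below background in every deletion and YBL008W-A in the SIR2 deletion, so those differences are not measured on both sides. Within the list EST1 was nearest to RIF2, at a distance of 0.60, with 182 genes nearer.

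Haploid-specific and alpha-specific genes of the mating type program moved in every deletion. Of 8 haploid-specific genes all 8 were at least 2-fold lower in each deletion, with a summed log2 level of 43.8 to 45.7 in the deletions and 82.0 in wild type, and FAR1, FUS3 and STE18 were below background in every deletion. Of 4 alpha-specific genes all 4 were lower, with a summed log2 level of 23.3 to 25.4 in the deletions and 53.3 in wild type. MF(ALPHA)1 among them was below background in every deletion. None of 5 a-specific genes was called at 2-fold, with sums of 27.6 to 29.2 in the deletions and 29.9 in wild type. AGA2 among them differed by -0.68, -0.82 and -0.52 in strains lacking SIR2, SIR3 and SIR4 and was below background in every deletion. HMRA1, the a1 gene of the silent locus HMR, lay at 9.38, 9.01 and 9.80 in strains lacking SIR2, SIR3 and SIR4, against 2.87 in wild type, which is below background. Of 4 stress genes, 2 were higher and 1 lower in the SIR2 deletion, 1 higher and 2 lower in the SIR3 deletion, and 0 higher and 1 lower in the SIR4 deletion. The trehalose synthesis gene TSL1 differed by 2.16, 0.98 and -0.21 and the chaperone gene HSP104 by 1.56, 1.20 and -0.26. The small heat shock gene HSP26 differed by 0.18, -2.06 and -1.33 and the stress gene DDR2 by -1.43, -2.19 and -0.85. Summed log2 levels of the 4 stress genes were 37.9, 33.3 and 32.8 in strains lacking SIR2, SIR3 and SIR4, against 35.4 in wild type. The part of these changes in the values of the telomere genes was not tested.

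The other genes of telomere maintenance were described from a list of 47, of which 46 were measured and 45 lay above background on all 4 arrays. None of the 46 was called in any deletion, at 2-fold, where 2.86%, 2.4% and 1.45% of all genes were called, or at 1.5-fold, where 10.5%, 6.5% and 3.51% were. Their medians were -0.06, -0.03 and 0.03 in strains lacking SIR2, SIR3 and SIR4, and the median sizes of their differences without sign were 0.14, 0.09 and 0.08, against 0.20, 0.14 and 0.10 over all genes.

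RAP1, which encodes the protein that both Sir and Rif proteins bind, differed by -0.07, -0.01 and 0.02. Of the checkpoint kinases and their assembly factors, TTI1 differed by 0.18, -0.04 and 0.31 and TTI2 by -0.15, -0.15 and 0.16. In the group of Ku, whose Yku80 subunit binds both telomerase RNA and Sir4, and of the Mre11 complex, which trims ends, RAD50 differed by -0.26, 0.07 and -0.21 and MRE11 by -0.07, -0.05 and 0.04. SAE2 lay at 4.48, 4.43 and 4.18 in strains lacking SIR2, SIR3 and SIR4, against 4.75 in wild type, and was below background in the SIR4 deletion.

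For the proteins that bind telomerase RNA, the median of 11 genes was -0.22, -0.09 and 0.06 in strains lacking SIR2, SIR3 and SIR4, and single genes did not all keep that order. POP7, a subunit shared with RNase P, differed by -0.46, -0.15 and 0.01, SMD2 of the Sm ring by -0.41, -0.21 and -0.02, and SMD1 by -0.08, -0.15 and 0.02. The 3 subunits of replication protein A, which binds single-stranded DNA, were above wild type in the SIR2 and SIR3 deletions. RFA2 differed by 0.56, 0.38 and 0.03, RFA1 by 0.33, 0.14 and -0.17 and RFA3, named after its values were seen, by 0.33, 0.14 and 0.09. SGS1, a helicase that helps resect ends, differed by -0.05, -0.04 and 0.02.

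Nonsense-mediated decay is known to lower the RNA of several telomere genes, among them STN1 and TEN1. Of its 3 core factors, NMD2 differed by -0.42, -0.15 and -0.21, UPF3 by -0.44, 0.00 and 0.03, and NAM7 by -0.01, 0.07 and 0.21 in strains lacking SIR2, SIR3 and SIR4. In the SIR2 deletion STN1 and TEN1 differed in opposite directions, by -0.41 and 0.38, and a link to these factors was not tested. Of the KEOPS complex, which modifies tRNA and was linked to telomeres by genetics, CGI121 differed by 0.09, 0.21 and 0.15, PCC1 by -0.16, -0.06 and 0.11 and KAE1 by -0.02, -0.03 and -0.02. ENV11, a partner of Tbf1, differed by -0.15, -0.08 and 0.10, its partner VID22 by 0.02, -0.07 and -0.06, and the subtelomere-binding factor REB1 by 0.09, 0.17 and -0.02.

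**Figure D4:**
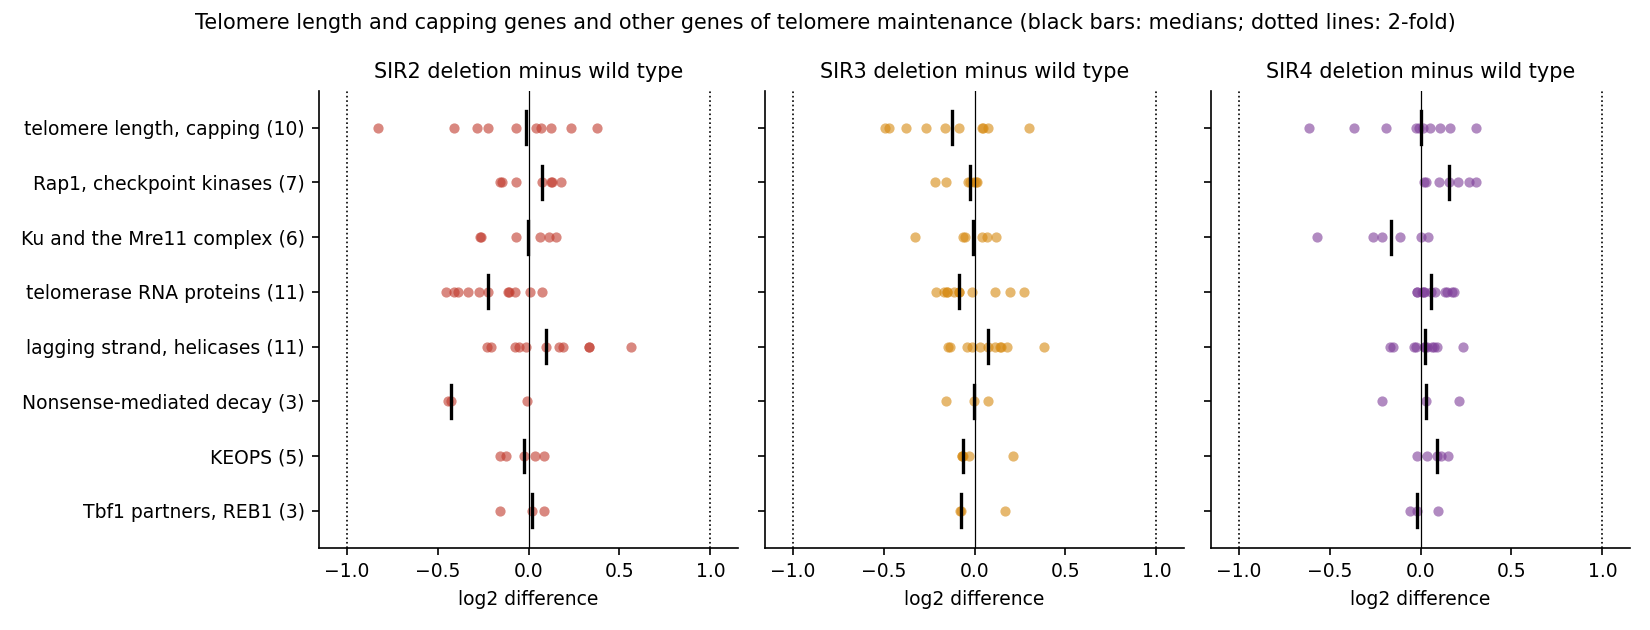
Log2 difference from wild type (horizontal axis) of the 10 telomere length and capping genes and of 46 other genes of telomere maintenance in 7 groups, with 1 point a gene, the number of genes in brackets and black bars at the medians. No point passes the dotted 2-fold lines in any deletion, and the point farthest left in the SIR2 and SIR4 panels is RIF2.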

How the data were processed

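RNA from 4 strains, 1 array each, was measured; samples were grouped by the genotype in the labels. The deposited values are log2 levels for 10928 probe sets. The submitters' processing notes name RMA, which corrects background, equalizes arrays and combines probes; its version is not given in the sources used here. A shift common to all genes would not be seen. Signal differs with probe sequence, so levels of different genes were not read as relative amounts of RNA. Nearness to background and summed levels describe signal only.

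Probe sets were named through the platform annotation and matched on gene identifiers to RefSeq's R64 table, giving 5498 probe sets for 5449 genes; the 47 genes with several were represented by the brightest. Differences are each deletion minus wild type, called at 2-fold, with 1.5-fold as the second limit. Tools were Python 3.11.15 and pandas 2.3.3; the counting was checked on simulated data. The telomere genes, the list of 47 related genes and the limits were chosen with earlier results of these data known. Named besides the 10 genes were their neighbours, the 5 genes most like RIF2 and, per group of related genes, the 2 that differed most and the 1 that differed least on average. Alternatives changed the limit, the scaling, the treatment of low values and of probe sets, and the deletions averaged. Promoter motifs were not analysed here. With 1 array a strain the number of arrays limits the precision.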

Additional observations from a re-analysis of the deposited data

How the results depend on the processing

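At a 1.5-fold limit the count of the 10 genes was 1 in the SIR2 deletion, 1 in the SIR4 deletion and 0 in the SIR3 deletion, and the count over all genes was 571, 354 and 191 in strains lacking SIR2, SIR3 and SIR4. At a 3-fold limit it was 0 of the 10 and 71, 65 and 45 over all genes, against 156, 131 and 79 at 2-fold. Under the other settings (2 scalings, values raised to background, probe sets averaged, shared probe sets left out) none of the 10 genes was called at 2-fold. Medians, not computed with shared probe sets left out, moved by at most 0.1. Only the 2 scalings could change the values of the 10 genes. All 10 lay above background on all 4 arrays, each with 1 probe set that is not shared, so the remaining settings left them as they were. Of the 30 differences from wild type, 1 changed sign, CDC13 in the SIR3 deletion under repeated quantile normalization, to 0.02; the cause was not tested. With the deposited values and under the 2 scalings RIF2 and EST1 had mean differences of -0.64 to -0.60 and -0.38 to -0.36. Without the SIR3 deletion the mean of EST2 was 0.17, and without the SIR4 deletion -0.17, against -0.01 over all 3. The mean of STN1 was -0.05 without the SIR2 deletion and -0.34 without the SIR4 deletion, against -0.17 over all 3. That of CDC13 was 0.17 without the SIR3 deletion, against 0.06, and that of TEN1 0.34 without the SIR4 deletion, against 0.22. No paired analysis was possible because each strain had 1 array. RIF2 and CDC13 lay nearest to background, at 1.31 to 2.17 and 1.49 to 1.95 above it. A fall larger than those margins would not be measured in full.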
